A study of Mus musculus with 6 samples.

Results

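The angulin family comprises 3 genes, Ildr1, Ildr2 and Lsr, among the 55291 genes measured in the dorsal skin of tight skin (TSK) and wild-type (WT) mice, and all 3 were among the 19971 genes with enough counts to be tested. The genes were taken by name as one family. They were chosen by name with earlier results of this same TSK and WT comparison known, in which Ildr2 was higher in TSK, so that their levels and fold changes are given here as a description, with no test. Bulk RNA was sequenced from shaved dorsal skin of 3 TSK and 3 WT mice, with 1 library per mouse, on a C57BL/6 background and labelled as female and 6 to 8 weeks of age, whereas the study's methods describe males. The TSK allele is a partial duplication of Fbn1, which encodes fibrillin 1 of the microfibrils, present in all cells of the animal, and the WT mice were littermates without it. The mutation was kept by backcrossing to C57BL/6, and no further allele or treatment is given for either group. Totals were 17561453 to 19219814 counts per library. Fbn1 itself was at 262 to 289 CPM (counts of the gene scaled to a fixed library total) in WT and at 1538 to 2284 CPM in TSK. Skin markers were present in all libraries, and the 10 skeletal muscle markers summed to 152500 to 221300 CPM in WT and to 130600 to 150000 CPM in TSK. The part of muscle RNA in the angulin levels was not tested. In bulk skin, a smaller number of cells of one type and less RNA per cell cannot be told apart.

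Angulins are membrane proteins with an immunoglobulin-like domain. Where 3 epithelial cells meet, angulins mark the corner and recruit tricellulin, the product of Marveld2, which seals the gap that tight junctions between pairs of cells leave. LSR, or angulin-1, is also known as a receptor for lipoproteins in liver, and ILDR1, or angulin-2, is needed for hearing. ILDR2, or angulin-3, has been studied as an inhibitor of T cells and as a gene linked to diabetes in mice.

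The sequence just upstream of each gene is shown because the 3 family members differed in their change between genotypes, and these stretches precede the start of each gene. They are the 250 bases before the RefSeq start (build GRCm38.p6), written 5′ to 3′ on the strand of the gene. Ildr1 lies at chr16:36693728-36693977 (plus strand), Ildr2 at chr1:166253889-166254138 (plus strand) and Lsr at chr7:30973470-30973719 (minus strand). Capitals mark matches, on either strand, to the GC box GGGCGG and to the E-box CAGGTG, which is bound by repressors of epithelial genes such as Snail and ZEB proteins.
Ildr1: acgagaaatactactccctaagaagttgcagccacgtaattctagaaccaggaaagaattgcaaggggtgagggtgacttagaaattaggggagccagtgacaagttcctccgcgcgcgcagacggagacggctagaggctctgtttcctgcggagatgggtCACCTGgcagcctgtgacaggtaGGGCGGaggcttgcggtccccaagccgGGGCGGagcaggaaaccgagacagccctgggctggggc
Ildr2: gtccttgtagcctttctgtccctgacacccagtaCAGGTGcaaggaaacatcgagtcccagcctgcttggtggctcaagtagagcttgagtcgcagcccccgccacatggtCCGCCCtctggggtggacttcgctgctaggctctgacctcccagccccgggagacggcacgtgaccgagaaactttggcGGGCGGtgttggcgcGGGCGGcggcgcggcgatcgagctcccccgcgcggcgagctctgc
Lsr: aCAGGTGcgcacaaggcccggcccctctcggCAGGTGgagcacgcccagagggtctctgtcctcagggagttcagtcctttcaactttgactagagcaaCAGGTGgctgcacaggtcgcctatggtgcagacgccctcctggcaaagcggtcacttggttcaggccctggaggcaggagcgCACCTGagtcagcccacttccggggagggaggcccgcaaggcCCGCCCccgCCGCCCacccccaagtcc

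All 3 upstream stretches held both motifs. Ildr2 had 3 GC boxes and 1 E-box, Ildr1 had 2 and 1, and Lsr had 2 and 4. Among 32851 stretches of the same length in the RefSeq promoter table, 32.7% held a GC box and 17.2% held this E-box. Matches to TATAAA and to the grainyhead motif AACCNGTT were also sought on both strands. Neither was found in the 3 genes, and 12.4% and 1.79% of all stretches held them. CG dinucleotides were most frequent upstream of Ildr2, with 23 against 14 for Ildr1 and 13 for Lsr and a median of 6 over all stretches. GC content was 66.8% for Ildr2 and Lsr and 59.2% for Ildr1. A match describes letters in a window and does not show that a factor was bound.

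Ildr2 was the angulin that differed most between the genotypes. The gene spans bases 166254139 to 166316823 of chromosome 1, plus strand (mm10), with 7 annotated transcripts. The WT mice 1, 2 and 3 had 4.96, 4.31 and 4.77 CPM, and the TSK mice 1, 2 and 3 had 34.9, 53.2 and 61.9 CPM. The 3 WT libraries lay close together, the TSK libraries were spread more widely, and the groups did not overlap. The ratio of the group means was 10.7 (4.68 ± 0.333 against 50 ± 13.8 CPM, SD, n = 3). After TMM scaling, which corrects for a few abundant genes that take up much of a library, the log2 fold change (TSK minus WT) was 3.13 (SE 0.21), and the lowest TSK library was 6.09 times the highest WT library. These values rest on 81.0 to 87.1 counts per WT library and 634 to 1168 counts per TSK library.

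Lsr, an angulin found widely in epithelia, was also higher in TSK, but by far less. The gene spans bases 30957770 to 30973464 of chromosome 7, minus strand, with 5 annotated transcripts. In the same order, WT skin had 16.3, 9.32 and 12.9 CPM, and TSK skin had 32.8, 23.5 and 21.3 CPM. The groups did not overlap, and TSK 1, the lowest TSK library for Ildr2, was the highest for Lsr. The means were 12.9 ± 3.51 and 25.9 ± 6.10 CPM (SD, n = 3), a ratio of 2.01. The log2 fold change was 0.76 (SE 0.21) after TMM scaling, and the lowest TSK library was then only 1.18 times the highest WT library. Of all genes tested, 29.1% had each TSK library above every WT library on the deposited CPM and 14.1% after TMM scaling, so a gap of this kind was common in these data.

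Ildr1 was the least abundant angulin by counts and did not separate the genotypes. The gene spans bases 36693978 to 36726804 of chromosome 16, plus strand, with 5 annotated transcripts. WT skin had 3.41, 1.56 and 1.22 CPM, and TSK skin had 2.21, 1.63 and 3.07 CPM. The ranges overlapped almost fully, with WT 1 highest and WT 3 lowest of all 6 libraries. These values rest on 22.3 to 59.9 counts per library. The exact Poisson 95% interval, which covers counting error only, was 2.61 to 4.40 CPM in WT 1 and 0.758 to 1.83 CPM in WT 3. The log2 fold change was -0.084 (SE 0.38). With library totals in place of TMM it was 0.16, on a scale where the median of all genes tested moved from -0.026 to 0.25, so no direction can be given.

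**Figure D1:**
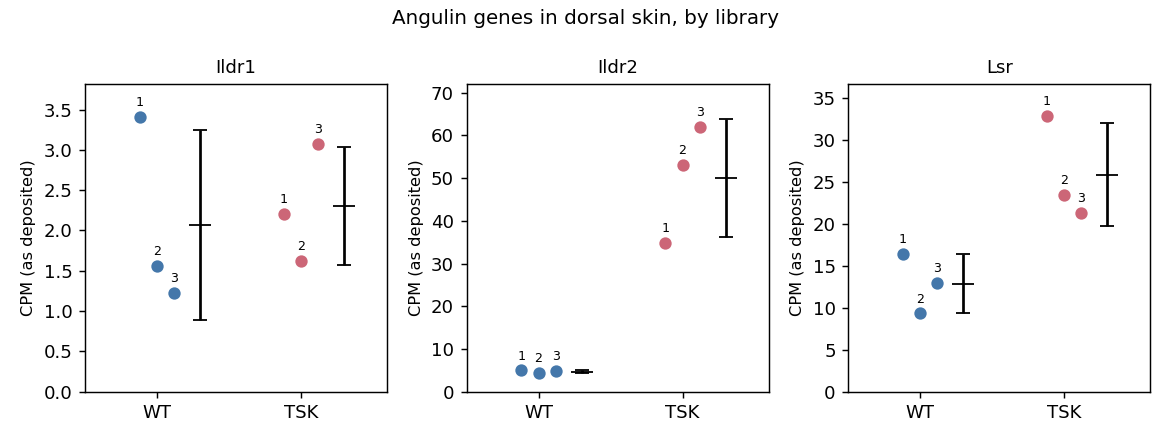
Level of each angulin gene in CPM as deposited (y axis, a separate scale for each gene) in the 3 WT and 3 TSK libraries, numbered by replicate. Points are single mice, and the bar beside them is the mean with the SD. Ildr2 is at 4.31 to 4.96 CPM in WT and at 34.9 to 61.9 CPM in TSK, Lsr separates by a smaller gap, and the Ildr1 libraries overlap.

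Per length, Lsr was the highest angulin in both genotypes, and Ildr2 was close to Ildr1 in WT skin only. With TMM-scaled CPM divided by the length of all annotated exons (4.296, 8.251 and 2.172 kb for Ildr1, Ildr2 and Lsr), the level of Lsr in WT skin was 6.43 ± 1.10 CPM per kb (SD, n = 3). Ildr2 at 0.626 ± 0.0342 CPM per kb lay within the range of the WT libraries for Ildr1, whose mean was 0.513 ± 0.235. In TSK skin Lsr was at 10.9 ± 2.94, Ildr2 at 5.48 ± 1.37 and Ildr1 at 0.487 ± 0.148 CPM per kb. The ranges of the 3 genes did not overlap in TSK. In TSK 3 it reached 6.66 against 8.71 CPM per kb for Lsr, while in TSK 1 the values were 3.98 and 14.2.

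The contrast between Ildr2 and its relatives can be read within each library, where scaling has no effect. The ratio of Ildr2 to Lsr in CPM was 0.304, 0.463 and 0.370 for the WT mice and 1.06, 2.27 and 2.91 for the TSK mice. The difference between the log2 fold changes of Ildr2 and Lsr was 2.37, and it ran from 2.07 to 2.80 when any 1 library was left out. The ratio of Ildr2 to Ildr1 was 1.45, 2.77 and 3.90 in WT and 15.8, 32.7 and 20.1 in TSK. Lsr to Ildr1, by contrast, was 4.79 to 10.6 in WT and 6.93 to 14.8 in TSK, and these ranges overlapped.

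To set Ildr2 beside the cells of the dermis, it was divided by fibroblast genes of the same library. The 25 genes of the fibroblast list had sums of 8072, 11060 and 12180 CPM in the WT mice and of 24300, 24660 and 53050 CPM in the TSK mice. After TMM scaling the ratio of the group means of this sum was 2.62, which gave the smallest p that 3 mice against 3 allow (two-sided exact permutation test, p = 0.1, adjusted over 2 sums 0.2), so this test could not have passed at 0.05. Per 1000 CPM of this list Ildr2 was at 0.615, 0.390 and 0.392 in WT and at 1.44, 2.16 and 1.17 in TSK. Relative to this sum Ildr2 was higher in all 3 TSK libraries, but Col1a1, Col1a2 and Col3a1 made up 74.9% to 88.2% of the sum. Without those collagens the log2 difference of the ratio (TSK minus WT) was 2.4 in place of 1.75. The result depended on the gene Ildr2 was divided by. Against each of the 25 genes alone, a check added after the data were seen, the TSK libraries lay above the WT libraries for 24 and overlapped them for Pi16. Ildr2 was chosen as higher in TSK, and its lowest TSK library was 6.09 times its highest WT library after TMM scaling. A gene that rises by much less leaves such a gap in place, so this count mainly restates the rise of Ildr2. The share of all genes that would leave such a gap was not computed. Per 100 CPM of Pi16, Ildr2 was at 36.2, 20 and 36.4 in WT and at 36.4, 36.5 and 21.1 in TSK. Per 100 CPM of Pdgfra, a growth factor receptor that marks fibroblasts, it was at 9.07 to 17.4 in WT and at 59.7 to 79.8 in TSK. The gap was narrower against Fbn1 and against the fibroblast genes with the steepest rises. Per 100 CPM of Mfap5, Ildr2 was at 33.2 to 47.4 in WT and at 51.6 to 61 in TSK, and per 100 CPM of Dpp4 it was at 60.5 to 75.5 and at 112 to 124. Per 100 CPM of Fbn1, Ildr2 was at 1.86, 1.5 and 1.82 in WT and at 2.27, 2.33 and 3.09 in TSK. The groups still did not overlap. Adipocyte markers were also higher in TSK, with sums of 147 to 213 CPM in WT and 497 to 2753 CPM in TSK. By edgeR's quasi-likelihood test at an adjusted p below 0.05, 3 of the 8 were called higher, where 2.71% of all genes tested were, and DESeq2 called 7, where it called 5.13% of all genes higher. The part of other cell types in the level of Ildr2 was not tested.

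Lsr was set beside epithelial genes of the same library. The 28 genes of the epithelial list, which Krt5, Krt14 and Krt15 dominate with 64.8% to 76% of the sum, had sums of 7899, 4074 and 4872 CPM in the WT mice and of 6768, 4393 and 4411 CPM in the TSK mice, and the groups overlapped. After TMM scaling the ratio of the group means was 0.783. The two-sided exact permutation test gave p = 0.3 (adjusted over 2 sums 0.3), but with 3 mice against 3 it cannot go below 0.1, so it could not have passed at 0.05. Per 1000 CPM of the list Lsr was at 2.07, 2.29 and 2.65 in WT and at 4.84, 5.34 and 4.83 in TSK. The spread within each genotype was small on this scale. Per 100 CPM of Epcam, an epithelial adhesion molecule, Lsr was at 63.0 to 70.3 in WT and at 79.1 to 107 in TSK, again with no overlap. Against each of the 27 tested genes of the list alone, also added after the data were seen, the TSK libraries lay above the WT libraries for 23 and overlapped them for Grhl1, Ovol1, Prss8 and Spint2. Lsr by itself already had each TSK library above every WT library. A gene that differs little between the genotypes tends to leave that gap in place, so this count mainly restates it. The share of all genes that would do so was not computed. Per 100 CPM of Prss8, Lsr was at 281, 343 and 405 in WT and at 426, 465 and 298 in TSK, so for Lsr too the result depended on the gene it was divided by. Ildr1 per 1000 CPM of the list was at 0.251 to 0.432 in WT and at 0.326 to 0.697 in TSK, which overlapped. Hair follicle markers, a part of the epithelium that the list covers little, summed to 6.73 to 16 CPM in WT and to 32.1 to 37.8 CPM in TSK, and none was at 0 in all libraries. Of 6 tested, 4 were called higher by edgeR (2.71% of all genes) and 3 by DESeq2 (5.13%), and their part in the level of Lsr was not tested.

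**Figure D2:**
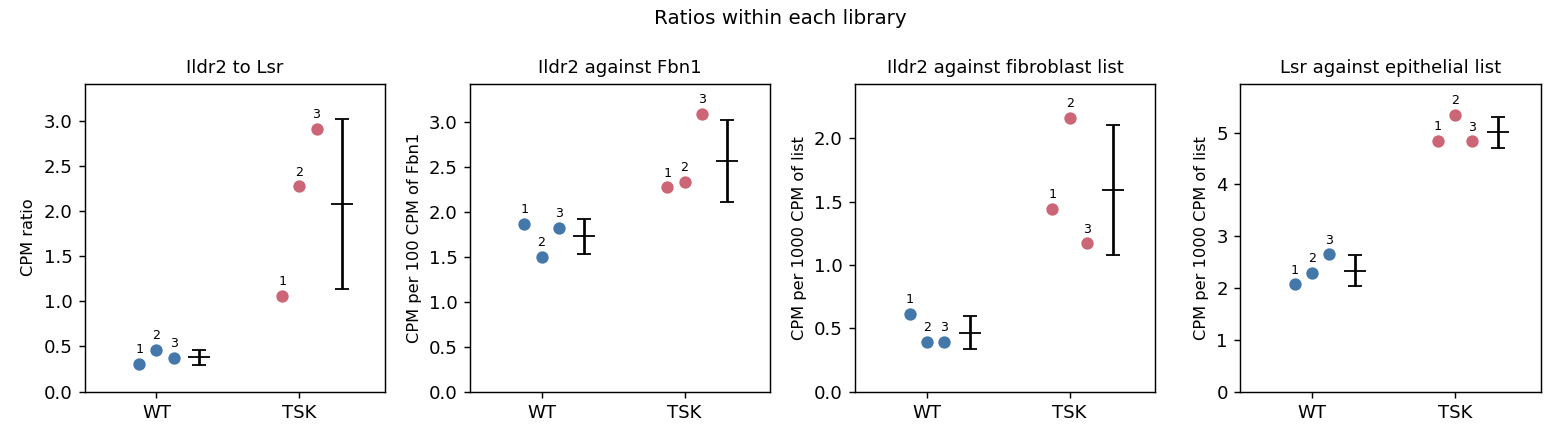
Ratios of CPM within each library (y axes, linear and starting at 0) for the 3 WT and 3 TSK mice, numbered by replicate, with the mean and SD beside the points. In all 4 panels the TSK libraries lie above the WT libraries. As a fold between the lowest TSK and the highest WT library, the gap is widest for Ildr2 to Lsr (0.304 to 0.463 against 1.06 to 2.91) and narrowest for Ildr2 per 100 CPM of Fbn1 (1.5 to 1.86 against 2.27 to 3.09).

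The other genes of the tight junction were tested next, since angulins work with them. With edgeR's quasi-likelihood test at an adjusted p below 0.05, 3.39% of all genes tested differed between the genotypes, 2.71% higher and 0.681% lower in TSK. Higher genes made up 79.9% of the genes called, but 94.8% with library totals in place of TMM (1685 higher, 93 lower) and 56.6% without WT 1 (713 higher, 547 lower). Before adjustment, 20% of all genes tested had an edgeR p below 0.05, 12.1% higher and 7.9% lower. DESeq2 called 6.98% of all genes, 5.13% higher and 1.85% lower. Of 28 listed tight junction genes 25 were tested. Of these 2 rose and 0 fell (before adjustment, p was below 0.05 for 5 higher and 3 lower genes of the 25, where it was for 20% of all genes, and DESeq2 called 0 lower). The median log2 fold change of the list was 0.068, against -0.026 over all genes tested. Both genes that rose were claudins, the membrane strands of the junction. For Cldn4 the means were 3.44 ± 1.15 CPM in WT and 11.5 ± 1.78 CPM in TSK (SD, n = 3), a rise of 1.5 on the log2 scale (SE 0.22) at an edgeR adjusted p of 0.0148. For Cldn23 they were 1.79 ± 0.668 and 6.83 ± 1.16 CPM, a rise of 1.68 (SE 0.25) at an edgeR adjusted p of 0.0168. DESeq2 called 5 of the list higher, where it called 5.13% of all genes. Without WT 3 neither claudin passed (adjusted p = 0.0831 and 0.0833), and without WT 2 Cldn23 did not (0.0514).

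The partner that angulins recruit did not pass the test. Marveld2, for tricellulin, was at 8.77, 5.54 and 6.21 CPM in WT and at 9.41, 7.75 and 7.05 CPM in TSK, and the groups overlapped (log2 fold change -0.018, SE 0.19, edgeR adjusted p = 0.971). Ocln, for occludin, was at 4.51 to 8.86 CPM in WT and 8.74 to 13.5 CPM in TSK (0.55 on the log2 scale, edgeR adjusted p = 0.298). Cldn1, the main claudin of the epidermal barrier, was at 33.8 to 80.1 CPM in WT and 64.9 to 99.8 CPM in TSK (0.31, edgeR adjusted p = 0.555). The other abundant members were Tjp1, a scaffold protein (0.52, edgeR adjusted p = 0.0888), and Cxadr, an adhesion receptor (0.023, adjusted p = 0.972).

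In the epithelial list, 0 of 27 tested genes rose and 1 fell with edgeR, where 2.71% and 0.681% of all genes did. DESeq2 called 0 higher and 1 lower, where it called 5.13% and 1.85% of all genes. An unadjusted p below 0.05 was reached with edgeR by 1 gene that was higher and 3 that were lower. These 4 genes of 27 compare with 20% of all genes, so the list did not stand above the background. The median log2 fold change was 0.018. The gene that fell was Krt18, a keratin of simple epithelia, with means of 1.18 ± 0.296 CPM in WT and 0.439 ± 0.116 CPM in TSK on 6 to 26 counts per library (log2 fold change -1.66, edgeR adjusted p = 0.0482). It did not pass when any 1 library was left out (adjusted p 0.0655 to 0.196 by edgeR). The basal keratins Krt5, Krt14 and Krt15 had log2 fold changes of -0.598, -0.61 and -0.296, and their edgeR adjusted p-values were 0.312, 0.402 and 0.596. Lsr, at 0.76 (SE 0.21), lay above every tested gene of this list. The highest of these was Prss8, a protease of the epidermal barrier, at 0.52 (SE 0.27), and Lsr was not tested against it. This rank holds for the list only. Of the tight junction list Cldn4 and Cldn23 lay above Lsr, at 1.5 and 1.68, and the other tested genes lay below it. Krtdap, a keratinocyte differentiation gene in neither list, was at 1.72.

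In the fibroblast list 6 of 25 tested genes rose and 0 fell with edgeR, where 2.71% and 0.681% of all genes did. An unadjusted p below 0.05 was reached by 18 genes, all of them higher (12.1% of all genes). DESeq2 called 17 higher and 0 lower, where it called 5.13% and 1.85% of all genes. The median log2 fold change was 0.94. The list was chosen with results of these libraries known, so its count is a description and not independent evidence of a direction. The steepest rises were in Pi16, Mfap5 and Dpp4. Pi16, a marker of adventitial fibroblasts, was at 13.1 to 21.6 CPM in WT and at 95.9 to 294 CPM in TSK (log2 fold change 3.14, edgeR adjusted p = 0.0118). Mfap5, a microfibril protein that binds fibrillin, had a log2 fold change of 2.61 and Dpp4, a cell-surface peptidase, one of 2.36, both with an edgeR adjusted p of 0.00327. The log2 fold change of Ildr2, 3.13, was close to that of Pi16. Without WT 3 the adjusted p of Pi16 was 0.0656, while Mfap5 and Dpp4 stayed below 0.05 whichever library was left out. The number called was 2 without WT 3, 3 without TSK 2, and 4 or 5 without any other single library. Markers of other cells moved beside these genes. All 7 endothelial markers had each TSK library above every WT library on the deposited CPM (sums of 124 to 149 and 209 to 374 CPM, against 29.1% of all genes with such a gap), and 5 did after TMM scaling (14.1% of all genes). Of the 7, edgeR called 1 higher, Tek, a receptor of vessel cells, where 2.71% of all genes were. All 7 were higher at an unadjusted p below 0.05 (12.1% of all genes), and DESeq2 called 3 higher (5.13% of all genes). The 10 skeletal muscle markers had a median log2 fold change of -0.80, with 0 called by edgeR (6 lower at an unadjusted p below 0.05, where 7.9% of all genes were) and 8 called lower by DESeq2 (1.85% of all genes). The part of these cells in the fibroblast rises was not tested.

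**Figure D3:**
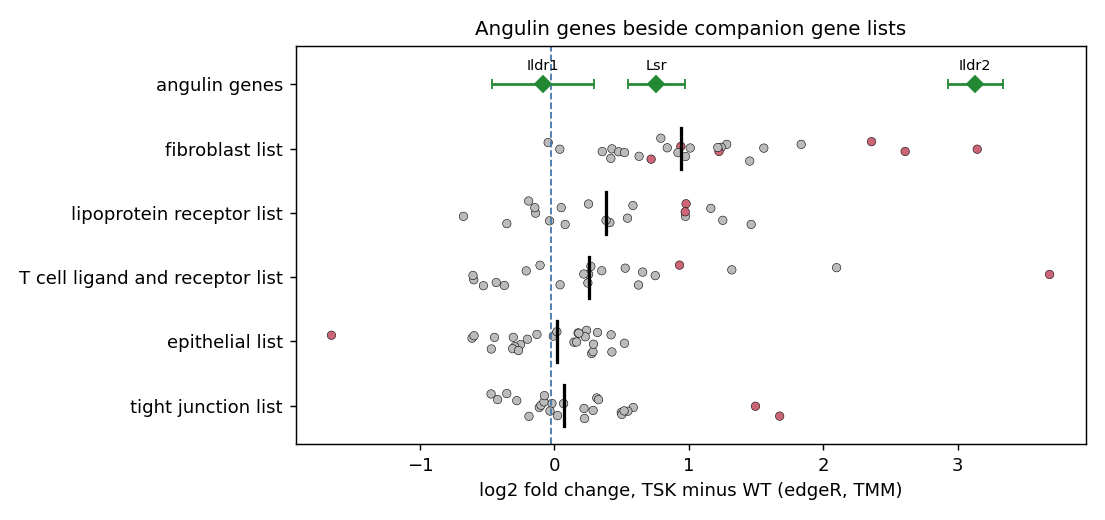
Log2 fold change of TSK minus WT (x axis, edgeR with TMM scaling) for the 3 angulin genes (diamonds with SE) and for each tested gene of 5 lists (points, red where the adjusted p was below 0.05). Black bars are list medians, and the dashed line is the median of all genes tested (-0.026). Ildr2 lies at 3.13 among the highest points of the fibroblast list, Lsr at 0.76 and Ildr1 at -0.084.

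ILDR2 is known as a relative of the B7 proteins, which restrain or activate T cells, so a list of such ligands and receptors was read beside it. Of 26 genes 21 were tested. Of these 2 rose, where 2.71% of all genes did, and 0 fell with edgeR (before adjustment, p was below 0.05 for 6 higher and 1 lower genes, where it was for 12.1% and 7.9% of all genes, and DESeq2 called 0 lower), and the median log2 fold change was 0.25. Vsir, for the checkpoint ligand VISTA, was at 17.3 to 29.4 CPM in WT and at 42.9 to 61.5 CPM in TSK (log2 fold change 0.93, SE 0.18, edgeR adjusted p = 0.0305). Vsig4, a complement receptor of macrophages that also restrains T cells, had 4, 0 and 1 counts in WT and 21, 29 and 35 in TSK, or 0.0943 ± 0.119 and 1.51 ± 0.350 CPM (edgeR adjusted p = 0.0202). Neither passed without WT 3 (0.142 and 0.105) or without TSK 3 (0.0698 and 0.0569), and Vsir did not pass without WT 2 (0.103). The macrophage markers summed to 174 to 236 CPM in WT and to 308 to 885 CPM in TSK, with 0 of 7 called higher by edgeR (5 higher at an unadjusted p below 0.05, 3 with DESeq2, where 12.1% and 5.13% of all genes were), and their part in these rises was not tested. The other abundant members were Lgals9 (0.042, edgeR adjusted p = 0.957) and Pvr (-0.53, adjusted p = 0.0888). The 8 T cell markers summed to 10.3 to 15.1 CPM in WT and to 15.1 to 17.61 CPM in TSK, a low level in both.

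Since LSR binds lipoproteins, receptors and handlers of lipoproteins were read as well. Of 20 genes 19 were tested, and 2 rose, where 2.71% of all genes did, and 0 fell with edgeR (before adjustment, p was below 0.05 for 6 higher and 1 lower genes, where it was for 12.1% and 7.9% of all genes, and DESeq2 called 0 lower). The median log2 fold change was 0.38. Scarb1, a receptor for high-density lipoprotein, had means of 24.3 ± 4.06 CPM in WT and 57.4 ± 6.52 CPM in TSK, a log2 fold change of 0.97 (SE 0.12) at an edgeR adjusted p of 0.0093. Lrp1, a large endocytic receptor, was at 363 to 392 CPM in WT and at 673 to 1182 CPM in TSK (0.98, edgeR adjusted p = 0.0475). Without WT 3 their adjusted p-values were 0.0615 and 0.177, and Lrp1 passed only when TSK 1 was the library left out (0.041). Apoe, the ligand of several of these receptors, had a log2 fold change of 0.58 (edgeR adjusted p = 0.324), and Lpl, the lipase that frees fatty acids from lipoproteins, one of 1.25 (0.261). TSK 2 held 1559 CPM of Lpl against 321 and 461 in the other TSK libraries, and it also had the highest sum of adipocyte markers, 2753 CPM against 497.3 and 649.5 in the others.

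The genes around each angulin were examined for a change that spans the locus. Of 7 tested genes within 500 kb of Ildr2, 0 passed with edgeR (1 at an unadjusted p below 0.05, where 20% of all genes were, and 1 with DESeq2, which called 6.98% of all), and the lowest adjusted p was 0.118. Its nearest tested neighbours, Gm15853, Tada1 and Pogk, had log2 fold changes of -0.23, 0.13 and 0.083. The antisense gene 5330438I03Rik shares 911 exonic bases with Ildr2 and held 0 to 5 counts per library, also in the libraries where Ildr2 held 1022 and 1168. Near Lsr, 2 of 35 tested genes passed, where 3.39% of all genes did, Krtdap, a keratinocyte differentiation gene (1.72, edgeR adjusted p = 0.0134), and Lgi4, a Schwann cell gene (1.05, edgeR adjusted p = 0.035), and DESeq2 called 5, where it called 6.98% of all. Without WT 3 neither passed (0.0536 and 0.124), and Lgi4 did not pass without WT 2, TSK 2 or TSK 3 (0.0612 to 0.0878). Usf2 and Fam187b, which lie 967 and 326 bases from Lsr, had log2 fold changes of 0.16 (edgeR adjusted p = 0.479) and 0.49 (0.435). The antisense gene Gm4673 overlaps 946 exonic bases of Lsr and held 60 to 161 counts, with a log2 fold change of 0.21 (edgeR adjusted p = 0.686), and it is not stated whether counting used the strand. Near Ildr1, 1 of 13 tested genes passed, Casr, the calcium-sensing receptor (-1.43, edgeR adjusted p = 0.00732), and DESeq2 called 3. The nearest tested neighbours of Ildr1 were Slc15a2, a peptide transporter (0.63, edgeR adjusted p = 0.632), and Cd86, a B7 ligand (0.63, 0.287). Apart from the antisense partners, no annotated transcript matched an angulin over more than 50 bases at 95% identity or more.

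The genes whose level was most like that of each angulin were ranked by Pearson's r over the 6 libraries, on TMM-scaled log2 CPM, among 12016 or 12017 other genes with a mean of at least 5 CPM. For Ildr2 they were Pgm3, an enzyme of amino sugar synthesis (r = 0.998), Scara3, a scavenger receptor (0.996), Dpp4 (0.996), Fyn, a kinase (0.996), and Adamts5, a protease of the matrix (0.995). Ildr2 falls into a low WT and a high TSK cluster, which any gene that differs between the genotypes shares in part. With the group means removed, r for these 5 genes was 0.803 to 0.955. They had been picked by r over the same 6 libraries, so this is no independent check of the likeness. The sizes differed, with Pgm3 at 6.21 to 7.76 CPM in WT and 12.7 to 15.4 in TSK and Scara3 at 5.06 to 6.61 and 29.6 to 45.7. For Lsr they were Mepce (r = 0.994), Fam129b (0.990), Cers3, a ceramide synthase of the epidermis (0.990), Ptgr1 (0.989) and Hnrnpa0 (0.989). Cers3 was at 3.94 to 7.97 CPM in WT and at 9.86 to 16.3 CPM in TSK. For Ildr1 they were Nlrp1b (r = 0.991), Cep152 (0.989), Smyd4 (0.984), Pcgf2 (0.978) and Gm43099 (0.978). None of the 5 separated the genotypes, and the highest size of their log2 fold changes was 0.16.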

How the data were processed

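Dorsal skin RNA was depleted of ribosomal RNA, made into stranded libraries and sequenced as single 50-base reads. The authors aligned the reads with STAR to mm10 and quantified Ensembl transcripts in Partek Flow 11.0. They deposited a table of estimated counts per gene (43.3% to 45.4% of the non-zero values were whole within 0.001) and a table of CPM, which equals those counts scaled to a fixed library total. Whether the authors' counting used the strand is not given in the sources used here.

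Estimated counts were rounded, since whole counts had been assumed when the tests were set. They were filtered with filterByExpr, scaled by TMM and tested with edgeR 4.0.16 (quasi-likelihood, R 4.3.3), with Benjamini-Hochberg adjustment over 19971 genes and a threshold of 0.05. DESeq2 1.42.0 and limma 3.58.1 served as alternatives, and transcripts were compared with BLAST 2.17.0. Summed lists were compared with a two-sided exact permutation test on TMM-scaled CPM. Scripts were tested on simulated data. Totals of 17561453 to 19219814 counts per library set the precision, and intervals cover counting error only. Groups and replicate numbers came from the sample titles, and the labels name no batch. Separate mice are taken from the study's methods.

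The members and gene lists were chosen with earlier results of these data known. Named genes were the 3 called genes with the steepest rise and fall in each list, the 3 most abundant where fewer than 3 were called, Marveld2, Ocln, Cldn1 and Fbn1, nearest, overlapping or called neighbours, and the 5 most like genes. Prss8, Tek, Pdgfra, Epcam and marker sums were added for comparison. Promoter sequences came from RefSeq (3 of 3 members matched) and positions from GENCODE M21 on mm10.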

Additional observations from a re-analysis of the deposited data

How the results depend on the processing

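The 3 mice per genotype limit every count of calls. Of 678 genes called in all, 2 of the tight junction, 1 of the epithelial, 6 of the fibroblast, 2 of the T cell and 2 of the lipoprotein list and 3 near the angulins, the numbers became, in the same order, 1778, 5, 0, 19, 5, 6 and 5 with library totals in place of TMM (Ildr2 at 3.42) and 1871, 5, 0, 19, 6, 5 and 6 with limma-trend on log2(CPM + 1). With DESeq2 they were 1533 in all, 5 for tight junction, 17 for fibroblast and 9 near the angulins. Without a filter on low counts they were 1387 in all, 14 for fibroblast, 4 for lipoprotein and 9 near the angulins. With the stricter limit of an adjusted p below 0.01 and a fold above 2.5, edgeR called 58 genes, 2 of them fibroblast and 0 in each of the other 4 lists. Leaving out 1 library gave 60 (without WT 3) to 1260 (without WT 1) genes, with 287 without WT 2, 381 without TSK 2 and 387 without TSK 3, 0 to 3 for tight junction, 0 for epithelial, 2 to 5 for fibroblast, 0 to 3 for T cell, 0 to 3 for lipoprotein and 1 to 8 near the angulins. The cause was not tested. Epithelial genes at an unadjusted p below 0.05 numbered 8 with library totals, 9 with limma-trend and 2 to 7 without 1 library by edgeR, and without WT 3 the tight junction, T cell and lipoprotein lists had 7, 7 and 5. Without 1 library the log2 fold change was 2.97 to 3.31 for Ildr2, 0.517 to 0.894 for Lsr and -0.33 to 0.387 for Ildr1, whose sign thus changed.

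Replicate numbers gave no sign of pairing the mice (correlations of same-numbered libraries 0.0112, 0.167 and -0.0938, and only number 2 correlated best with its own). With 3 libraries per genotype this cannot exclude a pairing. With the replicate number as a block edgeR called 794 genes, 574 of them among the 678, with 11 in the fibroblast and 0 in the epithelial list (10 at an unadjusted p below 0.05). Chosen after seeing the data, another denominator moved the log2 difference of Ildr2 relative to the fibroblast list from 1.75 to 2.4 without 3 collagens and to 0.0314 with Pi16 alone, and that of Lsr relative to the epithelial list from 1.11 to 0.197 with Prss8 alone. Of the genes called, 94.7% were higher in TSK with limma-trend.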
